A study of Homo sapiens with 16 samples.

Results

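The genes described here act when a cell enters, checks and leaves mitosis. They were chosen by their symbols and number 10 of the 42351 genes in the deposited count table: the kinases AURKA, AURKB, PLK1, TTK and BUB1, the checkpoint protein BUB1B, the activator CDC20 of the anaphase-promoting complex, the cyclins CCNB1 and CCNA2, and the topoisomerase TOP2A. All 10 were among the 15067 genes that passed the filter on low counts. PolyA RNA was sequenced from 2 lung cancer lines, 1 labelled as expressing wt MET (A549) and 1 as expressing MET∆14 (NCI-H596, an adenosquamous line whose MET transcript lacks the exon that encodes the juxtamembrane segment of the receptor). Cells of each line were deprived of serum for 12 h and then given HGF, the ligand of MET, for 0, 3, 6 or 12 h, with 2 biological replicates in each of the 8 groups and 16 libraries in all. The dose of HGF given for sequencing is not stated in the sources used here. Each form of MET is represented by 1 line, so the form of the receptor and the line cannot be told apart. No library kept without HGF for 3, 6 or 12 h was among the samples, so the action of HGF and the time passed since the 0 h harvest cannot be told apart either.

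Between 10158590 and 23909304 reads were counted per library, over 13226488 to 21970052 in the wt MET line and 10158590 to 23909304 in the MET∆14 line. MET itself was read at 1206 to 1539 CPM (reads of a gene scaled to the size of the library) in the wt MET libraries and at 370 to 443 CPM in the MET∆14 libraries. CDKN2A, which lies in a segment deleted in A549, had 0 counts in all 8 wt MET libraries, whereas its counts were 1466 to 3464 in the MET∆14 line. The epithelial keratin KRT18 was read at 1213 to 1523 CPM in the wt MET line and 358 to 701 CPM in the MET∆14 line, but the wt MET libraries held only 13 to 42 counts of EPCAM and 42 to 174 of CDH1. The leukocyte markers PTPRC and CD3E had at most 2 counts in any library. Of the other immune and stromal markers checked, COL1A2 had at most 3 counts and PECAM1 at most 37. CD68 had 494 to 721 counts in the wt MET line and 1527 to 3401 in the MET∆14 line. COL1A1 had 149 to 291 and 172 to 671 counts in these lines. Replicates differed by a chi-square of 2.36 to 7.74 per degree of freedom in 7 groups and of 26.9 in MET∆14 cells at 12 h. For that group, the numbers of mitotic genes called against 0 h or between lines are also given with either library left out. Results of the related gene lists at that time are given with all libraries only, so their dependence on either library is not shown.

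Progress through G2 and mitosis is ordered by kinases and by the destruction of their activators. Cyclin A and then cyclin B activate CDK1, PLK1 and Aurora A build the spindle poles, Aurora B corrects faulty attachments of microtubules at the centromere, and TTK, BUB1 and BUB1B keep CDC20 from activating the anaphase-promoting complex until every chromosome is attached. Their genes are transcribed late in the cycle, are repressed by the DREAM complex in quiescent cells and are later activated by B-MYB and FOXM1, through a short promoter element called the cell cycle genes homology region (CHR) and through CCAAT boxes bound by NF-Y. In bulk RNA, fewer cells in G2 and mitosis and less RNA per cell cannot be told apart.

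The promoters are shown to describe these short elements, and a link between the elements and the changes over time was not tested. RefSeq (GRCh38.p14) gave a promoter of 300 bases, from 250 before to 50 after the start, for 8 of the 10 genes, AURKA and TTK being the others, and the first of the 2 listed for AURKB was used. In hg38 AURKA lies at chr20:56369389-56392337 on the minus strand, TTK at chr6:80003887-80042527 on the plus strand and AURKB at chr17:8204733-8210600 on the minus strand (GENCODE v44). The last 100 bases before the RefSeq start are printed below for 7 of them, on the strand of the gene, with matches on either strand in capitals. The letters searched for the CHR and its variants were TTTGAA and the spellings with 1 other letter at a position (TTCGAA or else CTTGAA or else TTTAAA). For the NF-Y box the search was for CCAAT, whose reading on the opposite strand is ATTGG, while CTTGAA on that strand gives the letters TTCAAG.
PLK1, chr16:23678789-23678888, plus strand: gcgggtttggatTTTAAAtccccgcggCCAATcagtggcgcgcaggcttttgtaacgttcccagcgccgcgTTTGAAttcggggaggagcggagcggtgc
CDC20, chr1:43358881-43358980, plus strand: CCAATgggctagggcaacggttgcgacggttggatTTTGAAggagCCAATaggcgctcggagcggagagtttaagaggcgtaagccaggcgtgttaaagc
CCNB1, chr5:69167050-69167149, plus strand: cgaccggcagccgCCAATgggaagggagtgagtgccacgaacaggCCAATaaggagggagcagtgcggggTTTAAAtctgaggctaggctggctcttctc
CCNA2, chr4:121823884-121823983, minus strand: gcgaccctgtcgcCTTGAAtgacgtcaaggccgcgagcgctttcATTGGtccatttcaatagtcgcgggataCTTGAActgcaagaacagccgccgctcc
TOP2A, chr17:40417897-40417996, minus strand: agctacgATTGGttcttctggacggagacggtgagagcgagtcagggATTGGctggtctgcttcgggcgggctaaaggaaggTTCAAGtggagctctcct
BUB1, chr2:110678064-110678163, minus strand: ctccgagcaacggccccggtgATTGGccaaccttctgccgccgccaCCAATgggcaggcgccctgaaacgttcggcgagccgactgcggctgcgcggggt
BUB1B, chr15:40160969-40161068, plus strand: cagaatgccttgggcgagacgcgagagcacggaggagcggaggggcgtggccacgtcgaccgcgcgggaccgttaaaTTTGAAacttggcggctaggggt

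Within the whole windows, CCAAT was found in 7 of the 8 promoters, against 34.6% of the 35114 promoters in the table. That background holds every listed promoter, whereas 1 per gene was read for the 8. TTTGAA or TTCGAA was found in 5 of the 8, against 16.4%, and any of the 4 CHR spellings in 7, against 32.2%. CCAAT together with 1 of those 4 spellings was found in 6 of the 8 promoters, against 12.4% of all. The promoter of PLK1 held TTTGAA at position -29 and CCAAT at -73, counted from the RefSeq start to the first base of the match. BUB1B held TTTGAA at -23 and no CCAAT in its window, and BUB1 held TTCGAA at 2, which lies past the stretch printed. The window used for AURKB held CCAAT on the opposite strand at -153 and none of the 4 CHR spellings. Its last 100 bases before the start, chr17:8210226-8210325, lie inside the span of the gene given above. The other listed window of AURKB was not read for these counts, so the absence holds for the first window only. These matches describe letters and not bound sites.

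Before HGF, all 10 genes were higher in the MET∆14 line than in the wt MET line. The test was edgeR's quasi-likelihood F test, with p adjusted by Benjamini-Hochberg over all genes tested, and a call means an adjusted p under 0.05. In this comparison 40.6% of all genes were called higher in the MET∆14 line, so a count of 10 of 10 stands against a large background. CDC20, the activator that starts anaphase, had the greatest difference, at 16.4 and 15.3 CPM in the wt MET replicates and 167 and 185 CPM in the MET∆14 replicates (log2 difference 3.48, SE 0.14, edgeR adjusted p = 4.28e-12). CCNA2 followed with a log2 difference of 3.00 (SE 0.15), and PLK1 with 2.46 (SE 0.13). The smallest differences were 0.43 (SE 0.10, edgeR adjusted p = 0.00134) for BUB1 and 0.75 (SE 0.12) for TTK. No gene had replicates of the lines that overlapped at 0 h, which was also true of 45.7% of all genes in this direction.

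In the wt MET line, the mitotic genes were lower at each later time and all lowest at 12 h. Against 0 h, 5 of 10 were called lower at 3 h, 10 of 10 at 6 h and 10 of 10 at 12 h, where 7.16%, 17.8% and 18.2% of all genes tested were called lower. The median log2 fold change of the 10 genes was -0.41, -1.15 and -2.08 at the 3 times, beside -0.04, -0.05 and 0.00 for all genes tested. The 3 comparisons share the same 0 h libraries. At 3 h the calls fell on PLK1, CCNB1, AURKB, BUB1 and TOP2A. The count at 3 h was 3 without wt MET 0 h replicate 2 and 1 without wt MET 3 h replicate 1. At each of the 3 times both replicates of each gene lay under both 0 h replicates, which held for 31.4%, 37.8% and 34.8% of all genes. For replicates of different treated times, in either line, no such share is given. Statements below that these did not overlap only describe the values and do not set the genes apart.

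AURKB, the kinase of the chromosomal passenger complex, was 8.61 and 9.69 CPM at 0 h in the wt MET line, 6.21 and 5.66 at 3 h, 3.99 and 2.69 at 6 h, and 1.0004 and 0.336 at 12 h. The replicates at 12 h rested on only 21 and 5 counts and lay well under those of every earlier time. Its log2 fold change at 12 h was -3.65 (SE 0.27, edgeR adjusted p = 3.66e-07), the greatest fall among the 10 genes. Its call at 3 h (-0.62, SE 0.20, edgeR adjusted p = 0.0441) was lost when any of 10 libraries was left out.

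AURKA, the kinase of the spindle poles, behaved differently early on. It was 44.5 and 47.9 CPM at 0 h, 44.1 and 44.3 at 3 h, 38.5 and 35.9 at 6 h, and 19.3 and 20.5 at 12 h. Its log2 fold change at 3 h was -0.06 (SE 0.10), with a 95% interval from -0.28 to 0.15. Its fall at 6 h was small (-0.31, SE 0.10, edgeR adjusted p = 0.0281) and the call was lost when any of 11 libraries was left out, without filtering of low counts, and with DESeq2. At 12 h it had fallen by 1.21 on the log2 scale (SE 0.11), the smallest fall of the 10.

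PLK1, which acts from centrosome maturation to cytokinesis, changed early. It was 24.7 and 23.8 CPM at 0 h, 14.9 and 13.2 at 3 h, 6.96 and 4.31 at 6 h, and 3.95 and 3.63 at 12 h. No replicate overlapped with one of another time. Its log2 fold changes of -0.78 at 3 h (SE 0.15, edgeR adjusted p = 0.00157) and -2.09 at 6 h (SE 0.16, edgeR adjusted p = 3.17e-07) were the greatest of the 10 genes at those times. The exons of PLK1 overlap genes on the other strand over 12.8% of their length, among them ERN2, which had 0 counts in all wt MET libraries and at most 3 in the MET∆14 libraries.

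Both cyclins fell in the wt MET line. CCNB1, the mitotic partner of CDK1, was 60.4 and 66.9 CPM at 0 h, 37.5 and 43.1 at 3 h, 31.6 and 27.5 at 6 h, and 20.9 and 23.5 at 12 h. CCNA2, which acts in S phase and G2, was 9.48 and 8.27 CPM at 0 h, 6.61 and 6.79 at 3 h, 4.06 and 3.97 at 6 h, and 1.81 and 1.21 at 12 h. At 3 h CCNB1 had already gone through 43.5% of its log2 change at 12 h, against 16.2% for CCNA2 and between 5.18% and 29.4% for the other 8 genes. These shares were not tested, and the 12 h change of CCNA2 rests on 38 and 18 counts at 12 h. At 6 h the log2 fold changes of CCNB1 and CCNA2 were alike, at -1.10 (SE 0.13) and -1.14 (SE 0.19). At 12 h the fall of CCNA2 was 2.51 (SE 0.21) on the log2 scale and that of CCNB1 1.52 (SE 0.14). CCNA2 shares 9.24% of its exon length with EXOSC9 on the other strand, which had 241 to 440 counts in the wt MET libraries, and whether the counting used strand is not given in the sources used here, so its lowest values are uncertain.

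The checkpoint genes followed the same downward course. BUB1, which recruits the checkpoint proteins to kinetochores, was 59.1 and 68.6 CPM at 0 h, 46.1 and 46.8 at 3 h, 31.9 and 25.3 at 6 h, and 14.2 and 13.1 at 12 h. BUB1B, whose product BUBR1 binds CDC20 in the inhibitory complex, was 20.04 and 22.3 CPM at 0 h, 19.6 and 18.0 at 3 h, 13.7 and 10.4 at 6 h, and 7.29 and 5.65 at 12 h. TTK, the kinase that starts checkpoint signalling, was 24.3 and 27.2 CPM at 0 h, 17.6 and 22.6 at 3 h, 12.0 and 10.5 at 6 h, and 7.77 and 6.86 at 12 h. Replicates of different times did not overlap for any of the 3 genes, without a share of all genes for the treated times. BUB1 fell at each of the 3 times (log2 fold change -2.22, SE 0.12, at 12 h), whereas TTK (-0.36, SE 0.12, edgeR adjusted p = 0.0554) and BUB1B (-0.17, SE 0.14, edgeR adjusted p = 0.453) missed the threshold at 3 h. The 3 h call for BUB1 was lost when any of 3 libraries was left out (edgeR adjusted p up to 0.101), and TTK was called at 3 h when any of 3 libraries was left out (edgeR adjusted p down to 0.0220). BUB1B shares 10.2% of its exon length with PAK6 and a readthrough gene on the same strand, neither with over 7 counts in a library of the wt MET line.

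CDC20 was 16.4 and 15.3 CPM at 0 h in the wt MET line, 12.6 and 11.2 at 3 h, 6.96 and 6.46 at 6 h, and 3.05 and 2.56 at 12 h. Its replicates were separate at every step, with a log2 fold change at 12 h of -2.48 (SE 0.19, edgeR adjusted p = 3.66e-07). TOP2A, which untangles sister chromatids, had the smallest SE of the 10 genes. It was 208 and 206 CPM at 0 h, 151 and 165 at 3 h, 117 and 103 at 6 h, and 54.5 and 53.2 at 12 h. Its log2 fold change was -0.39 at 3 h (SE 0.08), -0.91 at 6 h (SE 0.08) and -1.94 at 12 h (SE 0.08, edgeR adjusted p = 2.10e-09).

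In the MET∆14 line, the same genes fell early and then did not fall further as a group. Against 0 h, 10 of 10 were called lower at 3 h, 9 of 10 at 6 h and 9 of 10 at 12 h, where 16.1%, 22.5% and 20.1% of all genes tested were called lower. The median log2 fold change of the 10 genes was -0.99, -0.60 and -0.63, beside -0.05, -0.04 and -0.02 for all genes tested. CDC20 at 6 h (-0.20, SE 0.12, edgeR adjusted p = 0.187) and BUB1B at 12 h (-0.32, SE 0.12, edgeR adjusted p = 0.0530) missed the threshold. Without 1 or the other library of the 12 h group, 8 and 10 genes were called lower at 12 h. Both replicates of each gene lay under both 0 h replicates at all 3 times, which held for 41%, 41.3% and 34% of all genes.

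TTK had the deepest early fall. It was 43.3 and 43.2 CPM at 0 h in the MET∆14 line, 12.3 and 13.2 at 3 h, 21.9 and 21.9 at 6 h, and 22.9 and 22.4 at 12 h. The 3 h replicates lay under all others, and those of 6 and 12 h lay close together between them and the 0 h level. The log2 fold change was -1.76 at 3 h (SE 0.12, edgeR adjusted p = 8.78e-08) and -0.93 at 12 h (SE 0.12, edgeR adjusted p = 2.54e-05), and the rise from 3 to 6 h was 0.78 (SE 0.13, edgeR adjusted p = 0.00149).

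The Aurora kinases and PLK1 had the same outline with a smaller amplitude. AURKA was 180 and 183 CPM at 0 h, 82.2 and 97.2 at 3 h, 126 and 124 at 6 h, and 110 and 130 at 12 h. PLK1 was 126 and 140 CPM at 0 h, 65.1 and 75.5 at 3 h, 96.7 and 93.2 at 6 h, and 88.6 and 95.3 at 12 h. For both genes the replicates at 3 h were the lowest, and those of 6 and 12 h overlapped. AURKB was 36.6 and 38.6 CPM at 0 h, 21.4 and 24.9 at 3 h, 24.1 and 24.8 at 6 h, and 26.1 and 29.0 at 12 h, so that its 3 and 6 h replicates overlapped. From 3 to 6 h AURKA rose by 0.47 (SE 0.10, edgeR adjusted p = 0.00599) and PLK1 by 0.43 (SE 0.12, edgeR adjusted p = 0.0340) on the log2 scale, and AURKB had a log2 difference of 0.07 (SE 0.16). The call for the rise of PLK1 was lost when any of 10 libraries was left out, and that of AURKA when any of 3 was. Both calls were also lost with each line fitted alone.

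BUB1 and BUB1B were lowest at 3 h as well. BUB1 was 84.9 and 87.4 CPM at 0 h in the MET∆14 line, 36.9 and 41.0 at 3 h, 44.5 and 45.7 at 6 h, and 49.7 and 51.6 at 12 h. BUB1B was 56.7 and 62.1 CPM at 0 h, 26.1 and 30.7 at 3 h, 37.9 and 38.6 at 6 h, and 47.6 and 47.8 at 12 h. For both genes the replicates stood higher at 6 h than at 3 h and higher at 12 h than at 6 h. The later step was not called for either gene. From 6 to 12 h BUB1 differed by 0.17 (SE 0.11, edgeR adjusted p = 0.290) and BUB1B by 0.32 (SE 0.12, edgeR adjusted p = 0.0876). BUB1B was at 48.0% of its 0 h level at 3 h and at 80.2% at 12 h, and BUB1 at 45.3% and 58.7%. The rise of BUB1B from 3 to 6 h was 0.43 (SE 0.13, edgeR adjusted p = 0.0482) and was lost when any of 12 libraries was left out. BUB1 from 3 to 6 h differed by 0.21 (SE 0.11, edgeR adjusted p = 0.263). PAK6, which overlaps BUB1B, had 274 to 660 counts in the MET∆14 libraries.

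CCNB1 and CDC20 were lowest at 12 h in the MET∆14 line. CCNB1 was 214 and 234 CPM at 0 h, 137 and 145 at 3 h, 166 and 163 at 6 h, and 97.1 and 131 at 12 h. CDC20 was 167 and 185 CPM at 0 h, 126 and 139 at 3 h, 153 and 154 at 6 h, and 99.8 and 137 at 12 h. The 12 h replicates of both genes were further apart than at any other time. From 6 to 12 h CCNB1 fell by 0.53 (SE 0.12, edgeR adjusted p = 0.00782) and CDC20 by 0.38 (SE 0.12, edgeR adjusted p = 0.0360), but the call for CDC20 was lost when any of 14 libraries was left out and with DESeq2. CCNA2 was 69.2 and 73.1 CPM at 0 h, 32.8 and 39.7 at 3 h, 47.2 and 48.0 at 6 h, and 39.6 and 51.1 at 12 h. Its 3 h replicates were at or near the lowest, and the 12 h replicate at 39.6 CPM lay just under the higher replicate of 3 h.

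TOP2A had a course of its own in the MET∆14 line. It was 391 and 402 CPM at 0 h, 187 and 200 at 3 h, 146 and 145 at 6 h, and 177 and 172 at 12 h, with no overlap between times. It was the only 1 of the 10 to be called lower between 3 and 6 h (-0.41, SE 0.08, edgeR adjusted p = 0.00464) and the only 1 to be called higher between 6 and 12 h (0.26, SE 0.08, edgeR adjusted p = 0.0327). The fall was not called without MET∆14 3 h replicate 2 (-0.37, edgeR adjusted p = 0.0645). The call for the rise was lost without filtering of low counts (edgeR adjusted p = 0.0937), with each line fitted alone (edgeR adjusted p = 0.0826) and when any of 5 libraries was left out.

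**Figure D1:**
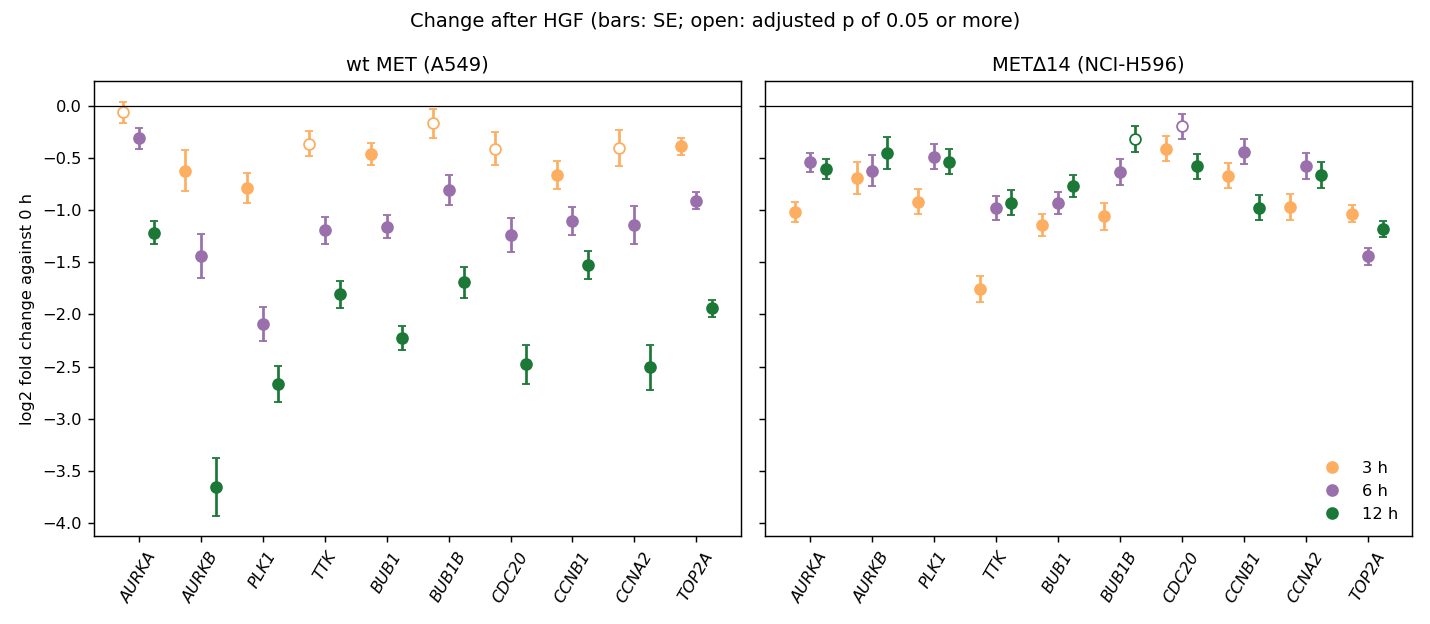
Log2 fold change against 0 h of each gene at 3, 6 and 12 h, in the wt MET line on the left and the MET∆14 line on the right; bars are SE and open circles did not pass the threshold. In the wt MET line the 12 h value is the lowest for all 10 genes, reaching -3.65 for AURKB, and in the MET∆14 line the lowest value is -1.76, for TTK at 3 h.

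The response to HGF differed between the lines for all 10 genes when the 3 times were tested together, with edgeR adjusted p from 1.43e-06 for TOP2A to 0.0106 for CCNB1, where 37.6% of all genes were called. The direction of the difference changed with time. At 3 h, 5 genes were called lower in the MET∆14 line relative to the wt MET line (TTK, AURKA, BUB1B, BUB1 and TOP2A), against 8.47% of all genes, and none were called higher. At 6 h, 4 were called higher (PLK1, CDC20, AURKB and CCNB1), against 16.4% of all genes, and 1 was called lower (TOP2A), against 13.8%. At 12 h, 10 of 10 were called higher, against 13%. Without 1 or the other MET∆14 library of 12 h, 10 and 9 were called at 12 h.

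TTK had the greatest difference of responses at 3 h, of -1.40 on the log2 scale (95% interval -1.77 to -1.03, edgeR adjusted p = 6.15e-05). AURKA followed with -0.95 (-1.25 to -0.66, edgeR adjusted p = 0.000234), since its RNA fell to 49.4% of the 0 h level in the MET∆14 line and stood at 95.7% in the wt MET line. CDC20 and CCNB1 had differences near 0 at 3 h, with intervals from -0.42 to 0.42 and from -0.39 to 0.37. At 6 h the greatest difference was that of PLK1, of 1.60 (1.18 to 2.03, edgeR adjusted p = 3.14e-05). The calls of AURKB (0.82, edgeR adjusted p = 0.0281) and CCNB1 (0.66, edgeR adjusted p = 0.0107) at 6 h were lost when any of 6 and of 3 libraries was left out, and the 5 calls at 6 h became 3 without wt MET 0 h replicate 2, wt MET 6 h replicate 2 or MET∆14 0 h replicate 1.

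At 12 h the differences ran from 0.55 for CCNB1 to 3.20 for AURKB. AURKB stood at 73.0% of its 0 h level in the MET∆14 line and at 7.94% in the wt MET line (difference 3.20, 95% interval 2.53 to 3.87, edgeR adjusted p = 9.87e-06). PLK1 differed by 2.13 (1.69 to 2.57), CDC20 by 1.90 (1.43 to 2.37) and CCNA2 by 1.85 (1.32 to 2.38). The checkpoint genes BUB1 and BUB1B differed by 1.46 (1.12 to 1.79) and 1.38 (0.96 to 1.79), and TTK by 0.88 (0.50 to 1.26). The difference of CCNB1 (0.16 to 0.94, edgeR adjusted p = 0.0385) was lost when any of 10 libraries was left out.

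**Figure D2:**
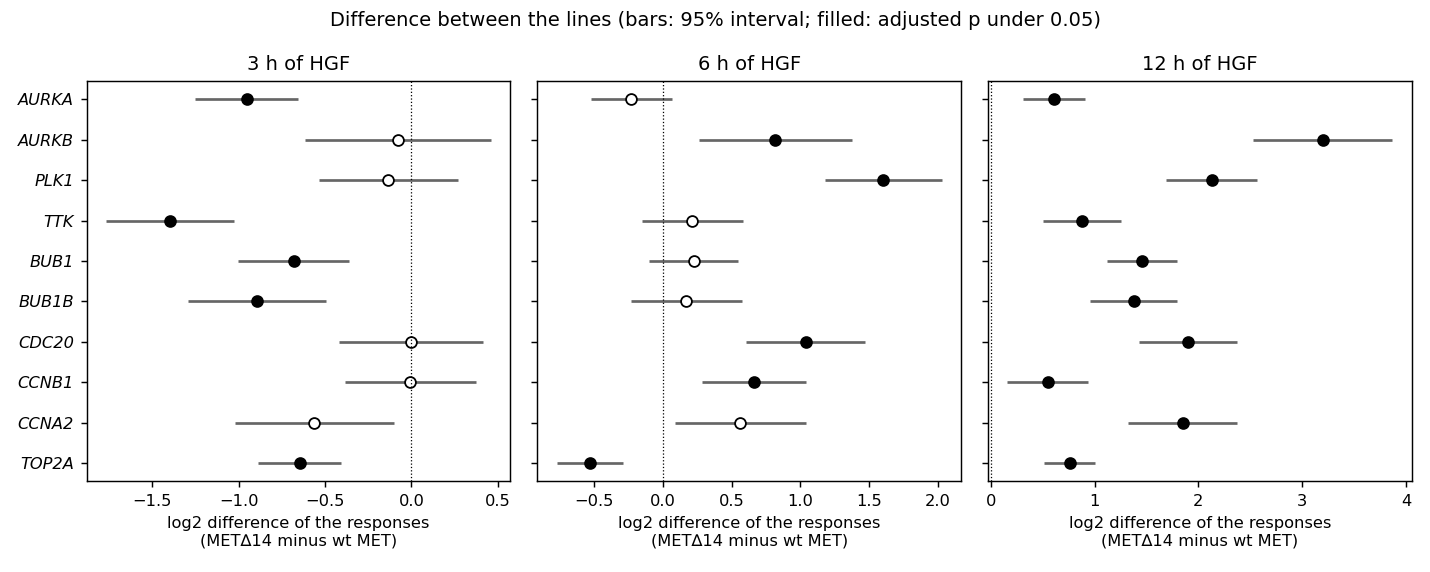
Difference of the log2 responses to HGF, MET∆14 minus wt MET, for each gene at 3, 6 and 12 h, with a separate horizontal scale per time; bars are 95% intervals and filled circles passed the threshold. At 3 h the 5 filled genes lie left of 0, and at 12 h all 10 lie right of 0.

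Between treated times the lines parted in the same way. From 3 to 6 h, 6 of 10 genes fell in the wt MET line, against 1.66% of all genes, while 4 rose (TTK, AURKA, PLK1 and BUB1B) and TOP2A fell in the MET∆14 line, against 4.67% and 5.1%. The difference of these steps was called for 8 genes, all higher in the MET∆14 line, against 2.65% of all genes, the exceptions being TOP2A (0.11, 95% interval -0.13 to 0.35) and AURKB (0.89, edgeR adjusted p = 0.0759). From 6 to 12 h, 8 of 10 fell in the wt MET line, against 5.98%, and in the MET∆14 line CCNB1 and CDC20 fell, against 10.3%, and TOP2A rose, against 8.3%. The difference of the later steps was called for 8 genes, again higher in the MET∆14 line, against 5.27%, all but CCNB1 (-0.12, 95% interval -0.51 to 0.28) and PLK1 (0.53, edgeR adjusted p = 0.157). Neither count of differences between steps was repeated with other settings or with a library left out. The counts within each line were. Without the wt MET replicate 2 of 6 h, in which each of the 10 genes was lower than in replicate 1, only 1 gene was called between 3 and 6 h in the wt MET line. Between 3 and 6 h in the MET∆14 line the 5 calls became 2 when any library of those times was left out and 3 without either MET∆14 library of 0 h. Leaving out a library of the wt MET line at 3 or 12 h, which enters only through the filter, the scaling and the shared spread, also gave 3. Without MET∆14 12 h replicate 1 the count was 8. For 6 against 12 h in that line, 0 of the 3 calls were left without either 6 h library, and 1 without MET∆14 12 h replicate 1 or without either wt MET library of 12 h.

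The study gives a formula with line and time as additive terms, fitted with DESeq2. Its transcriptomic work also included cells with amplified wt MET. With edgeR on 2 lines, this model called 8 of the 10 genes for time, against 17.2% of all genes called with a lower mean. AURKB (edgeR adjusted p = 0.0769) and BUB1B (edgeR adjusted p = 0.112) were not called by it, although each was called at 6 h within each line and for the difference between lines over the 3 times. Without wt MET 0 h replicate 2 or without wt MET 12 h replicate 1, the additive model called 5.

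The order of the 10 genes by level per transcript length (CPM per kb of the MANE Select transcript, GENCODE v44) changed between lines and times. In the wt MET line at 0 h the highest was TOP2A at 36.3 CPM per kb, followed by CCNB1 at 31.4, AURKA at 22.7, BUB1 at 17.0 and PLK1 at 11.2. CDC20 at 9.61, TTK at 8.69, AURKB at 7.36, BUB1B at 5.78 and CCNA2 at 3.23 CPM per kb made up the rest, and no neighbours in this order had overlapping replicates. At 0 h in the MET∆14 line CCNB1 at 110 CPM per kb and CDC20 at 107 were highest, with overlapping replicates, followed by AURKA at 89.4, TOP2A at 69.7 and PLK1 at 61.6. AURKB at 30.3, CCNA2 at 25.9, BUB1 at 22.9, BUB1B at 16.2 and TTK at 14.6 CPM per kb were the lower ones. CDC20 was thus sixth of 10 in the wt MET line and second in the MET∆14 line, where at 12 h it was first at 71.8 CPM per kb, with replicates that overlapped those of AURKA at 58.9. The highest gene stood 11.3 times above the lowest at 0 h and 20.4 times at 12 h in the wt MET line, where CCNB1 at 10.9 CPM per kb was then highest and AURKB at 0.538 lowest. In the MET∆14 line this spread was 7.56 times at 0 h, 18.7 at 3 h, 12.6 at 6 h and 9.39 at 12 h. TTK was the lowest there at each time.

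Across the 8 libraries of a line, the 10 genes were tightly correlated in the wt MET line and less so in the MET∆14 line. Over the 45 pairs of genes the median Pearson correlation of log2 CPM was 0.96 in the wt MET line, with the lowest at 0.83 for AURKA and PLK1. It was 0.87 in the MET∆14 line, with the lowest at 0.39 for BUB1B and CDC20. These are descriptions over 8 libraries that share the same 4 times. Among 8564 genes outside the group with at least 3 log2 CPM on average in each line, those most like the mean profile of the 10 genes over 16 libraries, centred within each line, were KIF2C (Pearson 0.982), KIF4A (0.978), TACC3 (0.976), CDCA8 (0.976), HJURP (0.9752), CKAP2L (0.974), RACGAP1 (0.973) and MAD2L1 (0.970). CDCA8 belongs to the passenger complex of Aurora B, MAD2L1 to the checkpoint and KIF2C to the motors that take microtubules apart. By Spearman correlation, 4 of these 8 were again among the first 8.

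Genes that work with the 10 were counted in lists defined by their role. Of 6 partners and activators of the Aurora kinases, 6 were called lower in the wt MET line at 12 h and 4 in the MET∆14 line, against 18.2% and 20.1% of all genes, with median log2 fold changes of -1.69 and -0.48. At 3 and 6 h, 1 and 5 were called lower in the wt MET line, against 7.16% and 17.8%. In the MET∆14 line 5 and 4 were called lower at these times, against 16.1% and 22.5%. INCENP, the scaffold of the passenger complex, changed by -0.64, -1.54 and -1.85 over 3, 6 and 12 h in the wt MET line and by -1.33, -0.71 and -0.51 in the MET∆14 line, called at each time. BIRC5, the survivin subunit, changed by -2.22 (SE 0.15) and -0.99 (SE 0.14) at 12 h in the lines. For INCENP the difference between lines was -0.70 at 3 h (edgeR adjusted p = 0.0320) and 1.34 at 12 h (edgeR adjusted p = 0.000434).

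Of 17 checkpoint and kinetochore genes, 2, 9 and 13 were called lower at 3, 6 and 12 h in the wt MET line, against 7.16%, 17.8% and 18.2% of all genes. In the MET∆14 line 11, 11 and 9 were called lower, against 16.1%, 22.5% and 20.1%. In each line 1 gene of the list was called higher: MIS12, a kinetochore subunit, rose by 0.23, 0.36 and 0.32 at the 3 times in the wt MET line, and BUB3, the partner of BUB1 and BUBR1, rose by 0.41 at 6 h and 0.31 at 12 h in the MET∆14 line. NUF2, part of the NDC80 complex that binds microtubules, changed by -3.02 at 12 h in the wt MET line and by -0.89 in the MET∆14 line, with a difference of 2.13 (edgeR adjusted p = 2.79e-05). SPC24, of the same complex, had 6 to 10 counts at 0 h and 0 to 1 at 12 h in the wt MET libraries and 427 to 574 at 0 h in the MET∆14 libraries, where it changed by -1.03 at 12 h.

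The CDK1 module was mixed. It holds CDK1 itself, the cyclins CCNB2 and CCNF, CKS1B and CKS2, and kinases and phosphatases such as those that switch CDK1. Of its 11 genes, 7 were called lower at 12 h in the wt MET line and 8 in the MET∆14 line, against 18.2% and 20.1% of all genes. At 3 and 6 h, 3 and 7 were called lower in the wt MET line, against 7.16% and 17.8%. In the MET∆14 line 8 and 7 were called lower at these times, against 16.1% and 22.5%. CDC25C, a phosphatase that activates CDK1, changed by -2.68 at 12 h in the wt MET line and by -2.49 at 6 h in the MET∆14 line. PKMYT1, a kinase that inhibits CDK1, changed by -2.04 (edgeR adjusted p = 4.04e-06) and -0.22 (edgeR adjusted p = 0.148) at 12 h in the lines. WEE1, the other inhibitory kinase of CDK1, went against the list in the wt MET line, where it rose by 1.67 at 3 h and 1.11 at 6 h on the log2 scale. WEE1 fell by 0.74 and 0.46 at these times in the MET∆14 line, and the difference between lines at 3 h was -2.40 (edgeR adjusted p = 5.50e-08). CDC25A, a phosphatase that acts at the start of S phase, rose in the MET∆14 line, by 0.88 at 3 h and 0.57 at 12 h, and had -0.32 (edgeR adjusted p = 0.405) and -0.08 (edgeR adjusted p = 0.847) in the wt MET line.

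Among 11 condensin and chromatid separation genes, 8 were called lower at 12 h in the wt MET line and 6 in the MET∆14 line, against 18.2% and 20.1% of all genes. At 3 and 6 h, 0 and 8 were called lower in the wt MET line, against 7.16% and 17.8%. In the MET∆14 line 9 and 10 were called lower at these times, against 16.1% and 22.5%. ESPL1, the protease separase that cuts cohesin, changed by -0.36 (edgeR adjusted p = 0.230), -1.39 and -2.78 over the 3 times in the wt MET line. ESPL1 changed by -1.53, -1.05 and -0.34 in the MET∆14 line, the last with an edgeR adjusted p of 0.101. NCAPD2, a condensin subunit, changed by -1.11 and -1.07 at 12 h, with a difference of 0.04 (edgeR adjusted p = 0.883). TOP2B, the paralogue of TOP2A that is also expressed in cells that do not divide, was called higher at 12 h in the wt MET line (0.39, edgeR adjusted p = 0.00326).

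The other kinases counted were NEK2, PLK2, PLK3, PLK4, PBK and MELK. Of these 6, 4 were called lower at 12 h in the wt MET line, against 18.2% of all genes. In the MET∆14 line 3 were called lower at 12 h, against 20.1%. At 3 and 6 h, 2 and 4 were called lower in the wt MET line, against 7.16% and 17.8%. The MET∆14 line had 4 and 5 called lower at these times, against 16.1% and 22.5%. NEK2, which separates centrosomes, changed by -2.49 and -0.92 at 12 h, and PBK by -2.43 and -0.91. PLK3, a stress-induced member of the polo family, was called higher at 3 h in both lines (0.48 and 0.98).

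Of 17 subunits and regulators of the anaphase-promoting complex, 5 were called lower and 3 higher at 12 h in the wt MET line, against 18.2% and 16.9% of all genes. In the MET∆14 line 3 were called lower and 3 higher, against 20.1% and 18.3%. UBE2C, its ubiquitin-conjugating enzyme, changed by -2.14 and -0.79 at 12 h, whereas CDC27, a core subunit, rose in the wt MET line by 0.34, 0.51 and 0.46 at the 3 times. ANAPC1, the scaffold subunit, was called higher at each time in the wt MET line (0.48, 0.47 and 0.32) and at 6 and 12 h in the MET∆14 line (0.23 and 0.31). CDC26 was called higher at 6 and 12 h in both lines, by 0.35 and 0.51 in the wt MET line and by 0.43 and 0.39 in the MET∆14 line. ANAPC7 rose by 0.26 at 6 h and 0.30 at 12 h in the MET∆14 line, where ANAPC10 (0.49), ANAPC13 (0.38) and CDC16 (0.37) were called higher at 6 h only.

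Transcription factors of the late cell cycle were split. FOXM1, which activates G2 and mitotic genes, changed by -0.29 (edgeR adjusted p = 0.117), -1.10 and -1.63 over 3, 6 and 12 h in the wt MET line and by -0.49, -0.65 and -0.68 in the MET∆14 line. MYBL2, which encodes B-MYB, changed by -1.45 (edgeR adjusted p = 0.000115) and -0.18 (edgeR adjusted p = 0.180) at 12 h, and was 4.84 log2 units higher at 0 h in the MET∆14 line. E2F4, a repressor subunit of the DREAM complex, rose in the MET∆14 line by 0.55, 1.001 and 0.58 at the 3 times, and at 3 and 6 h by 0.24 and 0.25 in the wt MET line. TFDP1, an E2F partner, rose at 6 and 12 h in the MET∆14 line, by 0.41 and 0.32. LIN52, of the DREAM core, rose by 0.58 at 3 h in the wt MET line and fell by 0.61 in the MET∆14 line, and LIN37 of the same core was called higher at 12 h in the MET∆14 line (0.38, edgeR adjusted p = 0.0413).

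The S phase genes differed between the lines at 12 h. Of 16 such genes, 13 were called lower and 1 higher in the wt MET line at 12 h, against 18.2% and 16.9% of all genes, with a median log2 fold change of -0.67. For the MET∆14 line 2 were called lower and 3 higher, against 20.1% and 18.3% of all genes, with a median of 0.00. At 12 h the difference between lines was called for 12 of the 16, all higher in the MET∆14 line, against 13% of all genes. At 3 and 6 h, 4 and 7 were called lower in the MET∆14 line, against 16.1% and 22.5%, with medians of -0.18 and -0.27. There 1 was called higher at each of these times, as were 2339 and 3256 of all 15067 genes. In the wt MET line 1 and 12 were called lower at 3 and 6 h, against 7.16% and 17.8%, and 0 higher. CDC45, of the replicative helicase, changed by -3.09 and -0.29 (edgeR adjusted p = 0.0580) at 12 h, the wt MET libraries holding 49 to 59 counts at 0 h and 7 to 9 at 12 h. E2F1 changed by -2.60 and 0.21 (edgeR adjusted p = 0.206), on 5 to 6 counts at 12 h in the wt MET line. The cyclins of the start of S phase went the other way, CCNE1 rising by 0.68, 0.54 and 0.47 in the MET∆14 line, and CCNE2 being called higher at 12 h in both lines (1.31 and 0.33), in the wt MET line from 3 to 6 counts at 0 h and 12 to 17 at 12 h. MCM6, of the helicase, was called higher at 12 h in the MET∆14 line (0.29, edgeR adjusted p = 0.00525).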

How the data were processed

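Adapters had been removed by the authors, and hg38 was the build to which their reads were aligned with STAR. The submitters' processing notes name STAR 2.5.0 and RSEM 1.3.2, without saying which step each served, and the use of strand is not given in the sources used here. The values deposited by the authors are whole-number counts of reads per gene, not normalized. All columns were assigned to samples by the labels (0 without a sample). The labels give 12 h of serum deprivation, and the study's text gives another length and another name for the wt MET line; the labels were followed.

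The tests used edgeR 4.0.16 (limma 3.58.1, R 4.3.3) after TMM scaling, on genes that filterByExpr retained at a minimum count of 10 and a minimum total of 15. A robust quasi-likelihood model had 1 coefficient for each of the 8 groups over 16 libraries (common coefficient of biological variation 0.0868), so that groups of 2 share an estimate of the spread, and p was adjusted by Benjamini-Hochberg over 15067 genes. The SE is the log2 fold change divided by the root of F, or for differences between lines the root of the summed squares of both. Log2 CPM used a prior count of 2. P-values measure the spread between these replicates only. The script was tested on simulated data.

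The genes and the lists were chosen with earlier results of these data known. From each list were named the 2 genes with the greatest mean change in either line and those called higher at a time against 0 h, and as most alike the 8 genes with the highest Pearson correlation. Alternatives were DESeq2 1.42.0, its size factors, no filter, a replicate block, each line fitted alone and each library left out. Replicate numbers did not pair the libraries. Promoters are from RefSeq, lengths and overlaps from GENCODE v44; genes with overlaps are uncertain.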

Additional observations from a re-analysis of the deposited data

Results flagged for a closer look

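The response to HGF differed between the wt MET and MET∆14 lines for all 10 genes by the joint test of the 3 differences (edgeR's quasi-likelihood F test, Benjamini-Hochberg adjusted over all genes tested), where 37.6% of all genes were called. Among the kinases the adjusted p was 1.03e-05 for AURKA, 1.25e-05 for AURKB, 1.96e-06 for PLK1, 2.90e-06 for TTK and 1.53e-06 for BUB1. It was 7.90e-06 for BUB1B, 2.69e-05 for CDC20, 0.0106 for CCNB1, 3.41e-05 for CCNA2 and 1.43e-06 for TOP2A. Averaged over 3, 6 and 12 h, the difference (MET∆14 minus wt MET) was above 0 for 7 genes, up to 1.31 for AURKB on the log2 scale, and below 0 for 3, at -0.19 for AURKA, -0.14 for TOP2A and -0.10 for TTK. No group had more than 2 libraries, so no library was tested for standing apart from its group in this way.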

How the results depend on the processing

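Counts of the 10 genes called lower against 0 h were the same or within 1 under DESeq2, its size factors, no filter, the replicate block and each line fitted alone. With each of the 16 libraries left out in turn they ranged from 1 to 7 (wt MET, 3 h, 1 without wt MET 3 h replicate 1 and 3 without wt MET 0 h replicate 2), 9 to 10 (6 h) and 10 (12 h), and in the MET∆14 line from 9 to 10, 8 to 10 and 8 to 10. The differences between lines ranged from 5 to 6 at 3 h, 3 to 6 at 6 h (3 without wt MET 0 h or 6 h replicate 2 or MET∆14 0 h replicate 1), 9 to 10 at 12 h and 10 over all times and at 0 h. The steps between treated times depended most on single libraries, with 1 to 9 (wt MET, 6 against 3 h), 7 to 10 (wt MET, 12 against 6 h), 2 to 8 (MET∆14, 6 against 3 h) and 0 to 3 (MET∆14, 12 against 6 h). Fitted alone, the MET∆14 line gave 2 and 0 for its steps, from fewer libraries for the spread. The additive model called 5 to 9. Signs turned in 20 instances, none with an adjusted p under 0.7. By other settings these were the difference of CDC20 at 3 h (0.0023 with DESeq2's size factors and 0.0033 with DESeq2). Over the libraries left out in turn, ranges that crossed 0 were those of AURKA at 3 h in the wt MET line (-0.1136 to 0.0184), of the differences at 3 h of AURKB (-0.217 to 0.0100), CDC20 (-0.1001 to 0.0605) and CCNB1 (-0.1299 to 0.0808), of that of BUB1B at 6 h (-0.0376 to 0.3571), and in the MET∆14 line of AURKB from 3 to 6 h (-0.0398 to 0.1857) and of AURKA (-0.1916 to 0.0545), PLK1 (-0.1024 to 0.0027) and CCNA2 (-0.2714 to 0.0968) from 6 to 12 h. The cause of these changes was not tested beyond the left-out libraries. Of the most alike genes, 4 of 8 stayed with Spearman.

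Deviations of same-numbered replicates correlated from -0.159 to 0.111 over 28 pairs of groups, over 0.1 in 1. With the replicate block, 137 of 140 single-gene calls were as before, AURKB in the wt MET line at 3 h (adjusted p 0.0568) and BUB1B from 3 to 6 h in the MET∆14 line (0.0628) were lost, and CCNB1 from 6 to 12 h in the wt MET line (0.0436) was gained; the counts were 4, 10 and 10 (wt MET) and 10, 9 and 9 (MET∆14). Depth limits AURKB at 12 h in the wt MET line, with 21 and 5 counts.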

Other observations

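Pairs of related genes changed their ratio over time in the wt MET line. The level per kb of AURKA was 3.09 times that of AURKB at 0 h, 4.56 times at 3 h, 6.93 times at 6 h and 21.0 times at 12 h, where the log2 ratios of the replicates were 3.56 and 5.22. In the MET∆14 line the ratio stayed between 2.37 and 3.12 times. The ratio of CCNB1 to CCNA2 was 9.72 times at 0 h in the wt MET line. It was 8.12 times at 3 h, 9.95 at 6 h and 20.3 at 12 h. At 12 h the log2 ratios of the replicates were 3.96 and 4.72, on 38 and 18 counts of CCNA2. In the MET∆14 line the ratio of CCNB1 to CCNA2 was 4.26 times at 0 h and 3.40 at 12 h. BUB1 stood 2.94 times above BUB1B at 0 h and 2.07 times at 12 h in the wt MET line, and 1.42 and 1.04 times in the MET∆14 line, where the log2 ratios of the replicates at 12 h were 0.03 and 0.07. These ratios were not tested.

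Replicates of some groups differed in the same direction for many of the 10 genes. All 10 were lower in replicate 2 than in replicate 1 of wt MET 6 h, by 0.28 on average on the log2 scale, and all 10 were higher in replicate 2 of MET∆14 3 h, by 0.18.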
